A study of Mus musculus with 16 samples.

Results

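The genes described here are 9 members of the calcineurin and NFAT pathway, chosen by gene symbol from the 24421 genes counted in each muscle: the calcineurin subunits *Ppp3ca*, *Ppp3cb* and *Ppp3r1*, the calcineurin modulators *Rcan1* and *Rcan2*, and the NFAT factors *Nfatc1*, *Nfatc2*, *Nfatc3* and *Nfatc4*. All 9 were found in both muscles and passed the filter on low counts in every fit. Their mRNA was measured by poly(A) RNA-seq in the gastrocnemius (Gas), which is mostly made of fast fibers, and the soleus (Sol), which is rich in slow fibers, with 3 wild type (WT) and 5 LSD1-mKO libraries for each muscle. LSD1-mKO mice were C57BL/6 males that carried floxed *Lsd1* alleles and a CreERT2 transgene driven by the human ACTA1 promoter, so that tamoxifen deleted the histone demethylase LSD1 in skeletal muscle fibers, whereas WT mice carried the floxed alleles without the transgene. Both genotypes received tamoxifen at 75 mg/kg from 8 weeks of age for 5 days, and dexamethasone (Dex), a synthetic glucocorticoid, at 1 mg/kg for 7 days starting during the tamoxifen course. No Dex-free muscle entered any comparison, so each value below describes Dex-treated muscle.

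Calcineurin is a phosphatase that calcium switches on through calmodulin. It is built from a catalytic A subunit, encoded in muscle mainly by *Ppp3ca* and *Ppp3cb*, and a regulatory B subunit that binds calcium, encoded by *Ppp3r1*. Active calcineurin removes phosphates from NFAT factors, which then enter the nucleus and bind DNA. In skeletal muscle this route is known to respond to the nerve activity of slow motor units and to favour slow fiber genes. Rcan proteins bind calcineurin and can inhibit it, and *Rcan1* has an internal promoter that NFAT factors activate, so that its short mRNA is often read as a sign of calcineurin activity. Because NFAT factors are controlled by phosphorylation and location, the level of their mRNA does not report how active they were.

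The libraries held from 10130415 to 24576377 reads assigned to genes. Levels are given in CPM, the reads of a gene relative to the size of its library after TMM scaling, as mean ± SD over libraries. *Kdm1a*, the gene of LSD1, fell from 41.8 ± 5.69 CPM in WT Gas (n = 3) to 14.1 ± 2.19 CPM in LSD1-mKO Gas (n = 5) and from 34.1 ± 0.749 to 10.9 ± 1.72 CPM in Sol, as the labels say. The 7 skeletal muscle markers examined were detected in all 4 groups and summed to between 72286 and 166431 CPM per library. WT Gas replicate 3, LSD1-mKO Gas replicate 5 and WT Sol replicate 2 had the highest mean level of 77 ribosomal protein genes in their groups, at 8.62, 7.90 and 7.27 log2 CPM, and WT Gas replicate 3 also had the lowest TMM factor, 0.801. Some of the results that rest on these libraries are also given without them. The labels name no sequencing run, and Gas and Sol were counted in separate tables, so muscle and run cannot be told apart.

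Coordinates are those of the GRCm38 annotation. *Ppp3ca* lies at chr3:136670124-136937727 on the plus strand, *Ppp3cb* at chr14:20499364-20546573 on the minus strand and *Ppp3r1* at chr11:17159263-17200375 on the plus strand. *Rcan1* spans chr16:92391953-92470867 on the minus strand and *Rcan2* chr17:43801351-44039516 on the plus strand. *Nfatc2* lies at chr2:168476410-168601657 on the minus strand, *Nfatc3* at chr8:106058840-106130537 and *Nfatc4* at chr14:55823144-55833943, both on the plus strand. Exons of *Wdr92* cover 16.2% of the exon bases of *Ppp3r1*, and those of *Esrp2* cover 3.66% of *Nfatc3*. The libraries did not mark strand and reads over 2 genes are not assigned to either, so reads in the shared bases are left out of both counts. Levels divided by the full exon length may therefore be too low for *Ppp3r1* and *Nfatc3*.

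Promoter sequence was available from RefSeq on GRCm38.p6 for 7 members, as 12 windows of 250 bases that end just before an annotated transcription start. Windows are shown for the 4 members that differed between the muscles in both genotypes, and for *Rcan1* from both annotated starts, because the second is the internal start named above. Letters in capitals mark the core of the NFAT binding site, GGAAA on either strand (read as TTTCC on the printed strand), and each sequence is written 5′ to 3′ along its gene. The windows lie at chr16:92466170-92466419 and chr16:92400079-92400328 (*Rcan1*, minus strand), chr17:43801102-43801351 (*Rcan2*, plus strand), chr2:168601658-168601907 (*Nfatc2*, minus strand) and chr14:20546574-20546823 (*Ppp3cb*, minus strand).
Rcan1, upstream start: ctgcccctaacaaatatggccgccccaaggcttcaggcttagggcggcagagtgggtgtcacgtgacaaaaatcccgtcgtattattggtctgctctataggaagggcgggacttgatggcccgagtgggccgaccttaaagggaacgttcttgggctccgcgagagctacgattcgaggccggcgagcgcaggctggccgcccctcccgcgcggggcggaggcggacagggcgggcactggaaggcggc
Rcan1, internal start: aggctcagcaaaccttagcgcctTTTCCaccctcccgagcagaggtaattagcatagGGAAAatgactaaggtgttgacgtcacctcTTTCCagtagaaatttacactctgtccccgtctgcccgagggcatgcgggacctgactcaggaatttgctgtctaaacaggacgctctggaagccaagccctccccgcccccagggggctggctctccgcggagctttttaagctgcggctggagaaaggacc
Rcan2, first start: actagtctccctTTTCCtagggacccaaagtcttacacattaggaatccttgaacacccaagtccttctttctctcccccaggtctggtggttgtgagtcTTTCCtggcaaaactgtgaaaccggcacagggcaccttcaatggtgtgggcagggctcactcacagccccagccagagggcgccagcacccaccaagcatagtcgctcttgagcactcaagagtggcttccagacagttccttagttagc
Nfatc2, first start: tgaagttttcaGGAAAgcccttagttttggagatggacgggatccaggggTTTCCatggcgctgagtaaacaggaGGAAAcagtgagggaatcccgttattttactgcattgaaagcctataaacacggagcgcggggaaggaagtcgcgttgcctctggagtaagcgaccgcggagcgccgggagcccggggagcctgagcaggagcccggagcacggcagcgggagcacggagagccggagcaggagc
Ppp3cb: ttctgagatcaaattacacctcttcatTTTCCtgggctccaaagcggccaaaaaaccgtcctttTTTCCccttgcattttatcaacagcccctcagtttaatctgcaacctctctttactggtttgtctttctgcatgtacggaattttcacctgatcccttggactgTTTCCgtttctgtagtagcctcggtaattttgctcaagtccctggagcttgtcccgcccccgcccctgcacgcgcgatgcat

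The internal *Rcan1* window held 3 NFAT cores and the upstream *Rcan1* window held 0. The first *Nfatc2* window and the *Ppp3cb* window held 3 each, and the first *Rcan2* window held 2. The windows not printed above include the other *Nfatc2* window, which held 1, and *Rcan2* windows 2 and 3, which held 0 each. The *Nfatc4* window, also not printed, held 3, although *Nfatc4* was not among the members that differed between the muscles. Among 32851 mouse promoter windows of the same length, 55.6% held at least 1 core, 21.4% at least 2 and 6.39% at least 3. Of the 12 windows of the members, 5 held none. The same search, on both strands, found the letters TGTTCT, a core of the glucocorticoid receptor element, in 0 of the 12 windows, where 16.1% of all windows held them, a MEF2 site in 0 of 12, where 3.20% of all did, and an E-box (CANNTG) in 7 of 12, where 66.2% of all did. These are matches of letters and not measured binding. Since the deposited counts give 1 value per gene, the data cannot tell from which of the *Rcan1* starts the reads came.

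Loss of LSD1 moved none of the 9 members past the threshold in either muscle, whereas the muscles themselves differed in 5 of 9 members in WT and in 4 of 9 in LSD1-mKO. In both genotypes, *Rcan1*, *Rcan2* and *Nfatc2* were 2.48 to 3.55 times as high in Sol as in Gas, and *Ppp3cb* was lower in Sol. A gene was called when its Benjamini-Hochberg adjusted p in edgeR's quasi-likelihood test was under 0.05. For LSD1-mKO against WT, 0.0307% of 13040 genes were called in Gas and 0.967% of 13342 in Sol, so calls were rare among all genes too. For Sol against Gas, 17.0% of 13749 genes were called in WT and 24.5% in LSD1-mKO. Called higher in Sol in both genotypes were 6.71% of all genes and 3 members, and called lower in both were 5.72% of all genes and 1 member. Without adjustment, at p under 0.05, 0 members passed between the genotypes in Gas, where 9.06% of all genes did, and 1 member, *Nfatc2*, in Sol, where 15.5% did. DESeq2 likewise called 0 members between the genotypes. The unadjusted count of members in Gas depended on the fit. It was 3 of 9 with DESeq2, where 1402 of 13040 genes passed. With all 16 libraries in one fit it was also 3 of 9, where 1939 of 13749 genes passed. In the other settings it was 0 to 2. In Sol the count was 3 of 9 with the replicate number as a block, where 2500 of 13342 genes passed. It was 1 of 9 in each of the other settings.

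**Figure D1:**
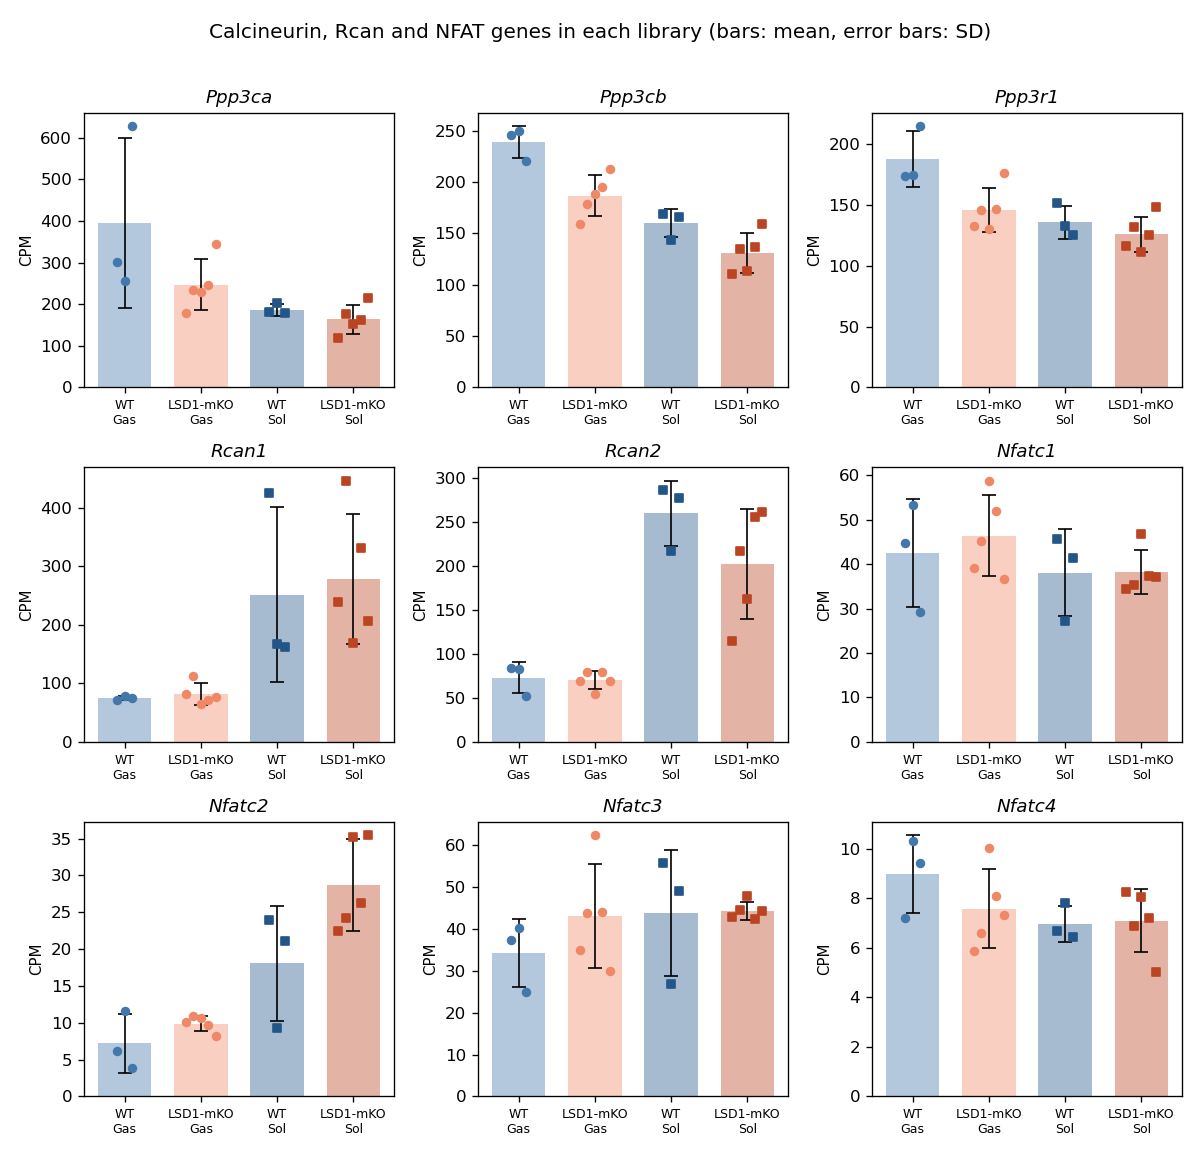
Level of each of the 9 genes in CPM in each library, by genotype and muscle. Points are libraries, bars are means and error bars are SD. *Rcan1* and *Rcan2* in Sol lie above every Gas library of the same genotype, and the WT Gas point of *Ppp3ca* at 628 CPM stands far above the others.

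Levels of different genes were compared only after division by exon length (CPM per kb), which may place *Ppp3r1* too low because of its shared exon bases. In Gas the calcineurin subunits were the most abundant members. In WT Gas, *Ppp3ca* had 82.5 ± 42.5, *Ppp3r1* 65.7 ± 8.17 and *Ppp3cb* 62.4 ± 4.10 CPM per kb, and their libraries overlapped, so their order is not resolved. *Rcan1* at 30.0 ± 1.28 and *Rcan2* at 18.5 ± 4.55 CPM per kb followed without overlap. The NFAT factors were lower. *Nfatc3* with 5.72 ± 1.36 and *Nfatc1* with 5.71 ± 1.65 CPM per kb overlapped each other, and *Nfatc4* with 2.23 ± 0.392 and *Nfatc2* with 0.859 ± 0.475 came last. LSD1-mKO Gas had the same order of means, in which *Ppp3cb* also overlapped *Rcan1*.

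In Sol the modulators stood at the top of the order. In WT Sol, *Rcan1* had 101 ± 60.0 and *Rcan2* 65.9 ± 9.41 CPM per kb, with overlapping libraries, and both had higher means than *Ppp3r1* with 47.7 ± 4.73, *Ppp3cb* with 41.6 ± 3.59 and *Ppp3ca* with 39.1 ± 2.96, whose libraries overlapped. In LSD1-mKO Sol, *Rcan1* with 111 ± 44.5 CPM per kb lay above *Rcan2* with a mean of 51.3 CPM per kb (29.1 to 66.2) in every library, while *Rcan2* overlapped *Ppp3r1* with 44.1 ± 5.07 CPM per kb. *Nfatc3* and *Nfatc1* again led the NFAT factors, with 7.42 ± 0.358 and 5.14 ± 0.663 CPM per kb. *Nfatc2* with 3.43 ± 0.741 CPM per kb was above *Nfatc4* with 1.76 ± 0.320 CPM per kb in LSD1-mKO Sol, the reverse of their order in Gas.

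**Figure D2:**
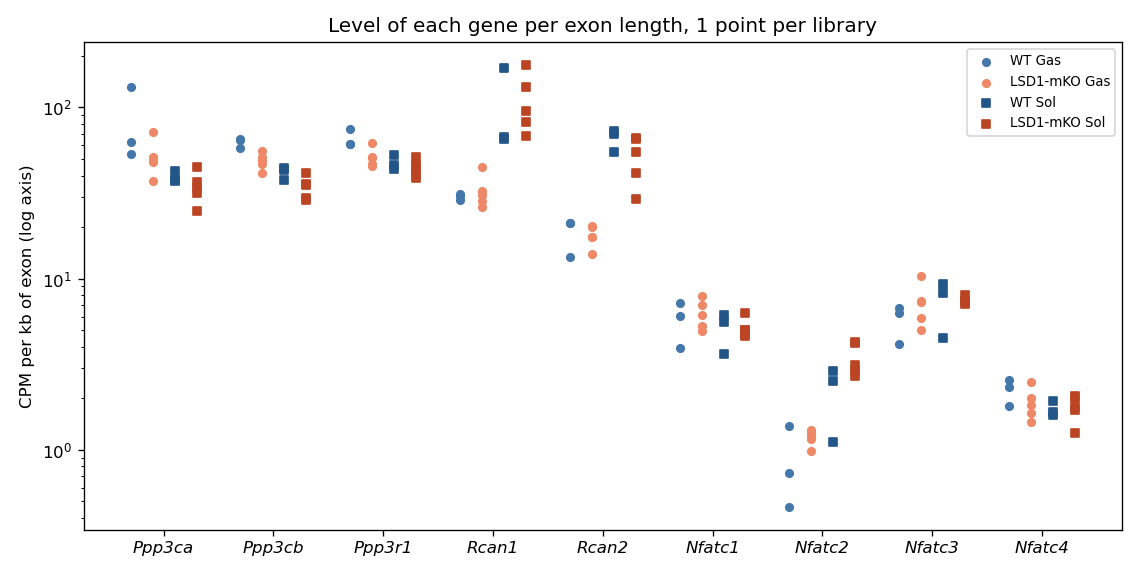
Level of each gene in CPM per kb of exon on a log axis, with 1 point per library and 1 colour per group. The mean Rcan levels lie below those of the calcineurin subunits in Gas and above them in Sol, with overlapping points for some pairs, and the NFAT factors stay below both, between 0.461 and 10.4 CPM per kb.

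Among the catalytic subunits, *Ppp3ca* encodes the alpha isoform. It had 302, 255 and 628 CPM in WT Gas and 179, 235, 230, 247 and 344 CPM in LSD1-mKO Gas. In WT Sol it had 181, 204 and 178 CPM, and in LSD1-mKO Sol 118, 176, 152, 162 and 214 CPM. The third WT Gas library was more than 2-fold above the other WT libraries, and the genotypes overlapped in both muscles. The log2 fold change of LSD1-mKO against WT was -0.67 in Gas (SE 0.309, 95% interval -1.36 to 0.012, adjusted p 0.555) and -0.20 in Sol (SE 0.175, adjusted p 0.631). Without WT Gas replicate 3, the Gas value was -0.17. In WT, *Ppp3ca* was lower in Sol than in Gas, at -1.08 on the log2 scale (SE 0.303, adjusted p 0.0224) and no overlap of the libraries, as for 14.5% of all genes that were lower in Sol without overlap. This call rested on the library at 628 CPM. Without it the log2 fold change was -0.59 (adjusted p 0.131), and without all 3 libraries of high ribosomal protein level it was -0.65 (adjusted p 0.0532). It was also lost without WT Sol replicate 1 (adjusted p 0.0783) or 3 (adjusted p 0.0816), and when only the WT libraries were fitted (adjusted p 0.108). In LSD1-mKO the difference was -0.59 (SE 0.233, adjusted p 0.0751), and it passed the threshold with the replicate number as a block (-0.58, adjusted p 0.0496), with the LSD1-mKO libraries alone (adjusted p 0.0291), with DESeq2 (adjusted p 0.0428), without WT Gas replicate 3 (adjusted p 0.0138) and without the 3 libraries (-0.45, adjusted p 0.0354). With the ribosomal protein level in the model it was -0.19 (adjusted p 0.466), and it stayed above the threshold with RLE in place of TMM scaling (adjusted p 0.0660) and with no filter on low counts (adjusted p 0.0623).

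*Ppp3cb*, the beta isoform of the catalytic subunit, varied less between libraries. It had 246, 250 and 221 CPM in WT Gas and 159, 179, 188, 195 and 213 CPM in LSD1-mKO Gas, so that every LSD1-mKO library lay below every WT library. This separation, lower in LSD1-mKO, was seen in 2.82% of all genes tested in Gas. The summed level of the 4 fibroblast markers examined separated in the same direction, with 1208 to 1883 CPM in WT Gas and 818 to 980 CPM in LSD1-mKO Gas, although 0 of 4 was called (median log2 fold change -0.62). In bulk samples fewer cells of a type and less RNA per cell cannot be told apart, and the part of fibroblasts in the lower estimates of the calcineurin subunits was not tested. In WT Sol it had 169, 144 and 166 CPM, and in LSD1-mKO Sol 111, 135, 113, 137 and 159 CPM, and here the genotypes overlapped. The log2 fold change of LSD1-mKO against WT was -0.36 in Gas (SE 0.168, 95% interval -0.73 to 0.018, adjusted p 0.555) and -0.29 in Sol (SE 0.146, 95% interval -0.61 to 0.024, adjusted p 0.363), and neither passed. Between the muscles *Ppp3cb* was lower in Sol by a log2 fold change of -0.58 in WT (SE 0.170, adjusted p 0.0263) and -0.51 in LSD1-mKO (SE 0.131, adjusted p 0.00933). The WT call was lost in 5 of 16 fits without 1 library, namely WT Gas replicates 1 and 2 and each WT Sol replicate, with adjusted p up to 0.0719 and log2 fold changes from -0.63 to -0.51. It was also lost with the WT libraries alone (-0.59, adjusted p 0.114) and with no filter on low counts (-0.56, adjusted p 0.0683).

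*Ppp3r1* encodes the regulatory B subunit. It had 174, 175 and 215 CPM in WT Gas and 133, 146, 130, 147 and 176 CPM in LSD1-mKO Gas, with the highest LSD1-mKO library just above the lower WT libraries. In WT Sol it had 152, 133 and 125 CPM, and in LSD1-mKO Sol 116, 132, 111, 125 and 148 CPM. LSD1-mKO against WT gave a log2 fold change of -0.36 in Gas (SE 0.175, adjusted p 0.555) and -0.13 in Sol (SE 0.134, adjusted p 0.710). Sol against Gas gave -0.46 in WT (SE 0.168, adjusted p 0.0680) and -0.21 in LSD1-mKO (SE 0.130, adjusted p 0.248). The WT Sol libraries all lay below the WT Gas libraries, as for 14.5% of all genes, and with DESeq2 the WT difference passed (-0.47, adjusted p 0.0202). All 3 calcineurin subunits thus had point estimates below 0 in all 4 of these comparisons, of which 3 of 12 passed. The comparisons share libraries and are not independent of each other.

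Among the modulators, *Rcan1* varied more between libraries in Sol than in Gas. In WT Gas it had 71.7, 78.1 and 75.6 CPM and in LSD1-mKO Gas 81.4, 113, 65.3, 71.2 and 76.9 CPM. In WT Sol it had 426, 168 and 163 CPM, and in LSD1-mKO Sol 240, 447, 170, 331 and 206 CPM. The highest Sol library held 2.61 times the lowest in WT and 2.62 times in LSD1-mKO, and the genotypes overlapped widely. LSD1-mKO against WT gave a log2 fold change of 0.12 in Gas (SE 0.203, adjusted p 0.829) and 0.14 in Sol (SE 0.368, 95% interval -0.67 to 0.94, adjusted p 0.902). Sol exceeded Gas by a log2 fold change of 1.75 in WT (SE 0.375, adjusted p 0.00413) and 1.77 in LSD1-mKO (SE 0.290, adjusted p 0.000284), and every Sol library lay above every Gas library of its genotype. Higher levels without overlap were found in 15.9% of all genes in WT and 11.2% in LSD1-mKO. With the ribosomal protein level in the model, the WT value was 1.43 and missed the threshold (adjusted p 0.0702). Without 1 library the WT value ran from 1.14 to 1.99, with adjusted p up to 0.0408, and the call held in 16 of 16 such fits.

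*Rcan2*, the second modulator, held its call between muscles under every alternative tried in both genotypes. It had 83.5, 83.3 and 52.4 CPM in WT Gas, 68.8, 79.5, 54.9, 79.0 and 68.9 CPM in LSD1-mKO Gas, 286, 217 and 277 CPM in WT Sol, and 115, 217, 162, 256 and 261 CPM in LSD1-mKO Sol. The Sol libraries lay above the Gas libraries without overlap, as for 15.9% of all genes in WT and 11.2% in LSD1-mKO. The log2 fold change of Sol against Gas was 1.83 in WT (SE 0.279, adjusted p 0.000294) and 1.52 in LSD1-mKO (SE 0.215, adjusted p 7.29e-05). Between the genotypes it was -0.056 in Gas (SE 0.212, adjusted p 0.927) and -0.37 in Sol (SE 0.243, 95% interval -0.91 to 0.16, adjusted p 0.508). The Sol value was -0.71 with the replicate number as a block (adjusted p 0.197) and -0.21 without LSD1-mKO Sol replicate 1 (adjusted p 0.762). That block joins WT and LSD1-mKO libraries by number alone, and no label ties them to each other. The LSD1-mKO Sol libraries at 256 and 261 CPM lay within the range of the WT Sol libraries, and the other 3 lay below it.

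*Nfatc1*, on the minus strand of chromosome 18, is the NFAT factor whose binding motif the study's promoter search named. It had 44.7, 53.4 and 29.2 CPM in WT Gas and 39.2, 45.3, 58.8, 52.0 and 36.6 CPM in LSD1-mKO Gas. In WT Sol it had 45.7, 27.2 and 41.4 CPM, and in LSD1-mKO Sol 34.4, 35.3, 46.7, 37.4 and 37.2 CPM. All 4 groups overlapped. The 95% interval of the log2 fold change between the genotypes was -0.40 to 0.65 in Gas and -0.39 to 0.37 in Sol. Sol against Gas gave a log2 fold change of -0.16 in WT (SE 0.240, adjusted p 0.688) and -0.28 in LSD1-mKO (SE 0.185, adjusted p 0.292). With the ribosomal protein level in the model, *Nfatc1* was called lower in Sol in both genotypes, at -0.78 (adjusted p 0.00996) and -0.62 (adjusted p 0.00200), and without the 3 libraries of high ribosomal protein level it was called in LSD1-mKO (-0.36, adjusted p 0.0484) and not in WT (-0.19, adjusted p 0.530).

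*Nfatc2* was the one NFAT factor called between the muscles in both genotypes. It had 6.12, 11.6 and 3.85 CPM in WT Gas and 10.1, 10.9, 10.7, 9.63 and 8.26 CPM in LSD1-mKO Gas, against 24.0, 9.26 and 21.1 CPM in WT Sol and 22.5, 24.2, 35.2, 26.3 and 35.5 CPM in LSD1-mKO Sol. In LSD1-mKO every Sol library lay above every Gas library, as for 11.2% of all genes. In WT the second Sol library lay within the Gas range. The reads behind these values ran from 34 in WT Gas replicate 3 to 826 in LSD1-mKO Sol replicate 3. Sol exceeded Gas by a log2 fold change of 1.54 in LSD1-mKO (SE 0.268, adjusted p 0.000498), which held under each alternative, and of 1.31 in WT (SE 0.350, adjusted p 0.0166). The WT call was lost with the ribosomal protein level in the model (0.45, adjusted p 0.374), with the replicate number as a block (1.35, adjusted p 0.0628), with the WT libraries alone (1.30, adjusted p 0.140), and without WT Gas replicate 1 (1.20) or 3 (1.01) or WT Sol replicate 1 (1.05) or 3 (1.19). It remained without the 3 libraries of high ribosomal protein level (1.33, adjusted p 0.00444).

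Between the genotypes *Nfatc2* had an estimate above 0 in both muscles. The log2 fold change of LSD1-mKO against WT was 0.44 in Gas (SE 0.308, 95% interval -0.24 to 1.12, adjusted p 0.621) and 0.65 in Sol (SE 0.273, 95% interval 0.055 to 1.25, adjusted p 0.279). Neither passed the threshold over all genes. The Sol value rested in part on WT Sol replicate 2, at 9.26 CPM, and was 0.35 without it (adjusted p 0.455). It was 0.91 without WT Sol replicate 1 (adjusted p 0.207) and 0.78 without WT Sol replicate 3 (adjusted p 0.374). Under the other settings it ran from 0.35 to 0.79, with adjusted p of 0.0745 or more. In Gas the value was 0.17 without WT Gas replicate 3 and 0.99 without WT Gas replicate 2.

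*Nfatc3* and *Nfatc4* are the remaining calcineurin-regulated NFAT factors. *Nfatc3* had 37.5, 40.2 and 24.9 CPM in WT Gas, 35.0, 43.8, 62.5, 44.0 and 29.9 CPM in LSD1-mKO Gas, 55.7, 26.9 and 49.0 CPM in WT Sol, and 42.8, 44.5, 47.8, 42.4 and 44.4 CPM in LSD1-mKO Sol. Its groups overlapped, and no log2 fold change passed: 0.33 in Gas (SE 0.262, adjusted p 0.656) and 0.0082 in Sol (SE 0.193, adjusted p 0.992) between the genotypes, and 0.36 in WT (SE 0.270, adjusted p 0.388) and 0.045 in LSD1-mKO (SE 0.208, adjusted p 0.898) between the muscles. *Nfatc4* was the other low member, with 7.22, 10.3 and 9.41 CPM in WT Gas, 5.85, 6.60, 10.01, 8.10 and 7.34 CPM in LSD1-mKO Gas, 6.68, 7.79 and 6.42 CPM in WT Sol, and 8.26, 6.88, 8.06, 7.19 and 5.03 CPM in LSD1-mKO Sol. Its groups overlapped as well. Its log2 fold changes were -0.24 (SE 0.221, adjusted p 0.683) in Gas and 0.019 (SE 0.194, adjusted p 0.981) in Sol between the genotypes, and -0.36 (SE 0.229, adjusted p 0.292) in WT and -0.09 (SE 0.176, adjusted p 0.746) in LSD1-mKO between the muscles.

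**Figure D3:**
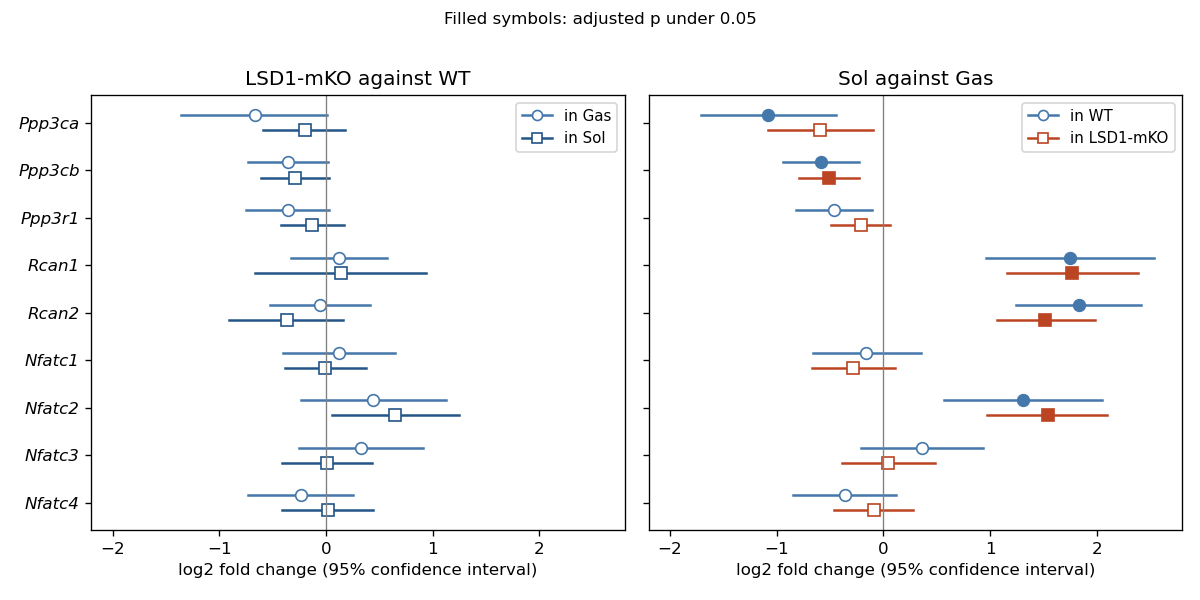
Log2 fold change of each gene with its 95% confidence interval for LSD1-mKO against WT in each muscle (left) and for Sol against Gas in each genotype (right). Filled symbols had an adjusted p under 0.05. No symbol is filled on the left, and on the right *Rcan1*, *Rcan2* and *Nfatc2* lie between 1.31 and 1.83.

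To ask if LSD1 loss acted differently in Gas and Sol, an interaction term was tested for each member in the fit of all 16 libraries. No member passed, and across all 13749 genes 0 were called (DESeq2 called 21, and 671 genes, 4.88%, had an unadjusted p under 0.05). The largest estimate among the members was that of *Ppp3ca*, 0.49 (SE 0.380, adjusted p 0.987), which fell to -0.019 in the lowest of the fits without 1 library. The others lay between -0.31 for *Nfatc3* and 0.27 for *Nfatc4*. The 95% intervals reached from -1.03 to 0.41 for *Nfatc3* and from -0.95 to 1.00 for *Rcan1*, so a 2-fold difference in the effect between the muscles is within what these libraries allow for some members.

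The share of each gene within its family does not depend on the scaling of the libraries. It was computed in each library from CPM per kb and was not tested. Of the 4 NFAT factors, *Nfatc1* held 39.0 ± 2.52% in WT Gas (range 36.1 to 40.6%) and 31.5 ± 0.993% in WT Sol (30.8 to 32.7%), and 38.0 ± 1.56% in LSD1-mKO Gas (35.8 to 39.9%) and 28.9 ± 1.19% in LSD1-mKO Sol (27.9 to 30.7%). The Sol shares of *Nfatc1* lay below the Gas shares in each genotype without overlap, although its CPM overlapped. *Nfatc2* showed the opposite, from 5.64 ± 1.87% to 12.8 ± 2.50% in WT and from 7.35 ± 1.18% to 19.2 ± 2.96% in LSD1-mKO. *Nfatc3* kept 39.4 ± 2.54% and 44.2 ± 3.51% in WT Gas and Sol, and a mean of 43.1% (39.3 to 47.2%) and 41.9% (39.0 to 44.3%) in LSD1-mKO. Within Sol, the *Nfatc2* share was 9.89 to 14.4% in WT and 16.3 to 23.7% in LSD1-mKO, while its CPM overlapped between the genotypes. No background over all genes can be given for such shares.

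Among the catalytic subunits, the third isoform *Ppp3cc*, which is not a member, held 4.35 to 10.1% of the summed CPM per kb in WT Gas and 16.4 to 17.5% in WT Sol, and 10.5 to 17.8% in LSD1-mKO Gas and 17.7 to 22.6% in LSD1-mKO Sol. *Ppp3ca* held 50.5 ± 13.9% in WT Gas and 40.2 ± 3.37% in WT Sol, and the wide error in Gas came from the library at 628 CPM. *Ppp3cb* stayed between 40.0 ± 1.46% and 42.9 ± 2.36% on average in the 4 groups. Of the Rcan genes, *Rcan1* and *Rcan2* together made up nearly all, with *Rcan3* at 1.14 ± 0.325% to 2.45 ± 0.816%. *Rcan2* held 30.2 to 41.6% of the family in WT Gas and 29.6 to 51.1% in WT Sol. In LSD1-mKO it held 30.4 to 39.9% in Gas and 23.0 to 44.1% in Sol. These shares overlapped between the muscles and do not show if either gene rose, which rests on the CPM given above.

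Several members moved with the ribosomal protein level of the library. In Gas, *Nfatc1*, *Nfatc2*, *Nfatc3* and *Rcan2* had their lowest value of all 8 libraries in WT Gas replicate 3 and *Ppp3ca* and *Ppp3r1* their highest, and that library had the highest ribosomal protein level. In Sol, *Nfatc1*, *Nfatc2* and *Nfatc3* had their lowest value in WT Sol replicate 2, with 27.2, 9.26 and 26.9 CPM against at least 34.4, 21.1 and 42.4 CPM in the other 7 libraries. That library again had the highest ribosomal protein level of its muscle. Sol libraries had lower levels of ribosomal protein genes (6.45 to 7.27 log2 CPM) than Gas libraries (7.09 to 8.62), so a fit with this level in the model also takes up part of the difference between the muscles. In that fit the WT muscle difference was -0.25 for *Ppp3ca*, 0.45 for *Nfatc2*, -0.39 for *Nfatc3*, 1.43 for *Rcan1* and 1.47 for *Rcan2*, and 3 members were called in place of 5, namely *Rcan2*, *Ppp3cb* and *Nfatc1*, where 14.0% of all genes were called. Without the 3 libraries, 4 of 9 members were called in WT and 6 of 9 in LSD1-mKO, where 21.7% and 31.3% of all genes were, and 0 of 9 between the genotypes in either muscle.

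**Figure D4:**
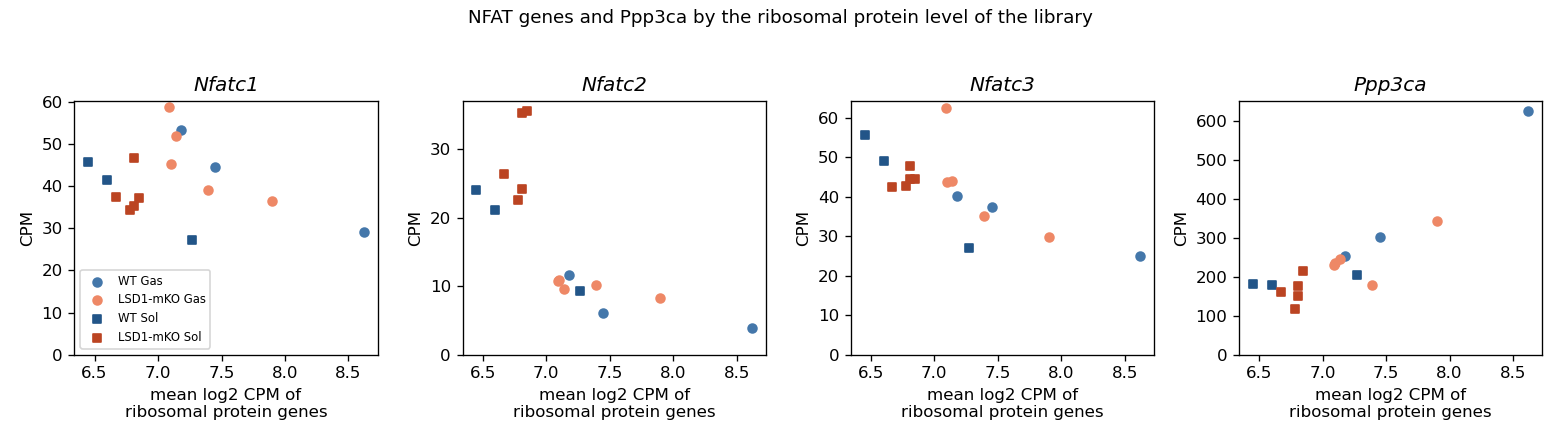
CPM of *Nfatc1*, *Nfatc2*, *Nfatc3* and *Ppp3ca* in each library against the mean log2 CPM of 77 ribosomal protein genes in the same library. The WT Gas library at 8.62 has the lowest Gas value of each NFAT factor shown and the highest *Ppp3ca* value, 628 CPM, and Sol libraries lie mostly to the left of Gas libraries.

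Whole muscle holds other cells besides fibers. The 4 endothelial markers summed to 206 to 377 CPM in WT Gas and 349 to 516 CPM in WT Sol, and to 200 to 351 CPM and 337 to 471 CPM in LSD1-mKO, with 0 of 4 called in WT and 1 of 4 higher in Sol in LSD1-mKO. The 4 markers of smooth muscle and pericytes summed to 156 to 419 CPM in Gas and 375 to 531 CPM in Sol over both genotypes, and 1 of 4 was called higher in Sol in LSD1-mKO. The 2 satellite cell markers summed to 2.27 to 2.96 CPM in WT Gas and 4.97 to 5.47 CPM in WT Sol. In LSD1-mKO they summed to 2.38 to 5.64 CPM in Gas and 5.82 to 7.85 CPM in Sol, and 0 of 2 were called in either genotype. The 4 Schwann cell markers summed to 90.7 to 471 CPM in Gas and 45.7 to 135 CPM in Sol, with 3 of 4 called lower in Sol in LSD1-mKO. The 7 leukocyte markers summed to at most 43.3 CPM, *Cd8a* had no read in WT Gas, and 3 of 7 could be tested, with 0 called. None of the markers of fibroblasts or adipocytes was called between the muscles. In no comparison of the genotypes was a marker of any of these cell types called, although the fibroblast sums in Gas did not overlap, as given above. In Sol they were 859 to 1337 CPM in WT and 435 to 1266 CPM in LSD1-mKO. The median sums of endothelial, smooth muscle, satellite cell and adipocyte markers were thus higher in Sol in both genotypes, as were *Rcan1*, *Rcan2* and *Nfatc2*. Those of fibroblasts, leukocytes and Schwann cells were lower. The endothelial sums overlapped between the muscles in both genotypes, and the smooth muscle sums overlapped in WT. The smooth muscle sums in LSD1-mKO and the satellite cell sums in both genotypes did not overlap. The part of any of these cells in the differences of the 3 members was not tested.

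The other genes of the pathway were followed with a list of 29, of which 28 were tested (*Ppp3r2* was not). Between the genotypes 0 of 28 were called in Gas, with a median log2 fold change of 0.0055 where all genes had 0.01, and 0 of 28 in Sol, with a median of -0.01 where all genes had -0.011. Over all genes, calls made up 0.0307% in Gas and 0.967% in Sol. Before adjustment, 4 of the 28 had p below 0.05 in Gas (9.06% of all genes). For Sol this was 1 of the 28 (15.5% of all genes). Between the muscles 3 were higher and 4 lower in Sol in WT, where 8.75% and 8.25% of all genes were, and 6 were higher and 4 lower in LSD1-mKO, where 12.9% and 11.6% were. The list's median difference was 0.33 in WT and 0.19 in LSD1-mKO.

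The largest of these differences between the muscles were those of *Myoz2*, *Homer2* and *Myoz1*. *Myoz2* and *Myoz1* encode calsarcins, proteins of the sarcomere that bind calcineurin and can restrain it. *Myoz2*, the calsarcin of slow fibers and heart, rose from 201 ± 56.3 CPM in WT Gas to 1516 ± 102 CPM in WT Sol (log2 fold change 2.92, SE 0.305, adjusted p 8.98e-06) and by 2.20 in LSD1-mKO (SE 0.230, adjusted p 3.73e-06). *Myoz1*, a calsarcin of fast fibers, fell from 3181 ± 154 to 559 ± 150 CPM in WT (-2.51, SE 0.240, adjusted p 4.26e-06) and by 2.26 in LSD1-mKO (SE 0.184, adjusted p 3.16e-07). *Myoz3*, the third calsarcin gene, named here after its values were seen, was lower in Sol as well (-0.99 in WT, adjusted p 0.0250, and -0.84 in LSD1-mKO, adjusted p 0.00984). *Homer2*, a scaffold protein that takes part in calcium signalling, rose from 46.7 ± 3.38 to 283 ± 52.2 CPM in WT (2.60, SE 0.305, adjusted p 2.49e-05) and by 2.38 in LSD1-mKO (SE 0.234, adjusted p 2.10e-06). The calmodulin gene *Calm3* fell from 473 ± 21.9 to 178 ± 33.6 CPM in WT (-1.41, SE 0.258, adjusted p 0.00127) and by 0.58 on the log2 scale in LSD1-mKO (SE 0.197, adjusted p 0.0413). *Trpc1*, which encodes a cation channel, rose by 1.57 in LSD1-mKO (SE 0.373, adjusted p 0.00555), from 0.524 ± 0.159 to 1.55 ± 0.194 CPM, and its WT difference of 1.18 did not pass (SE 0.487, adjusted p 0.106).

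**Figure D5:**
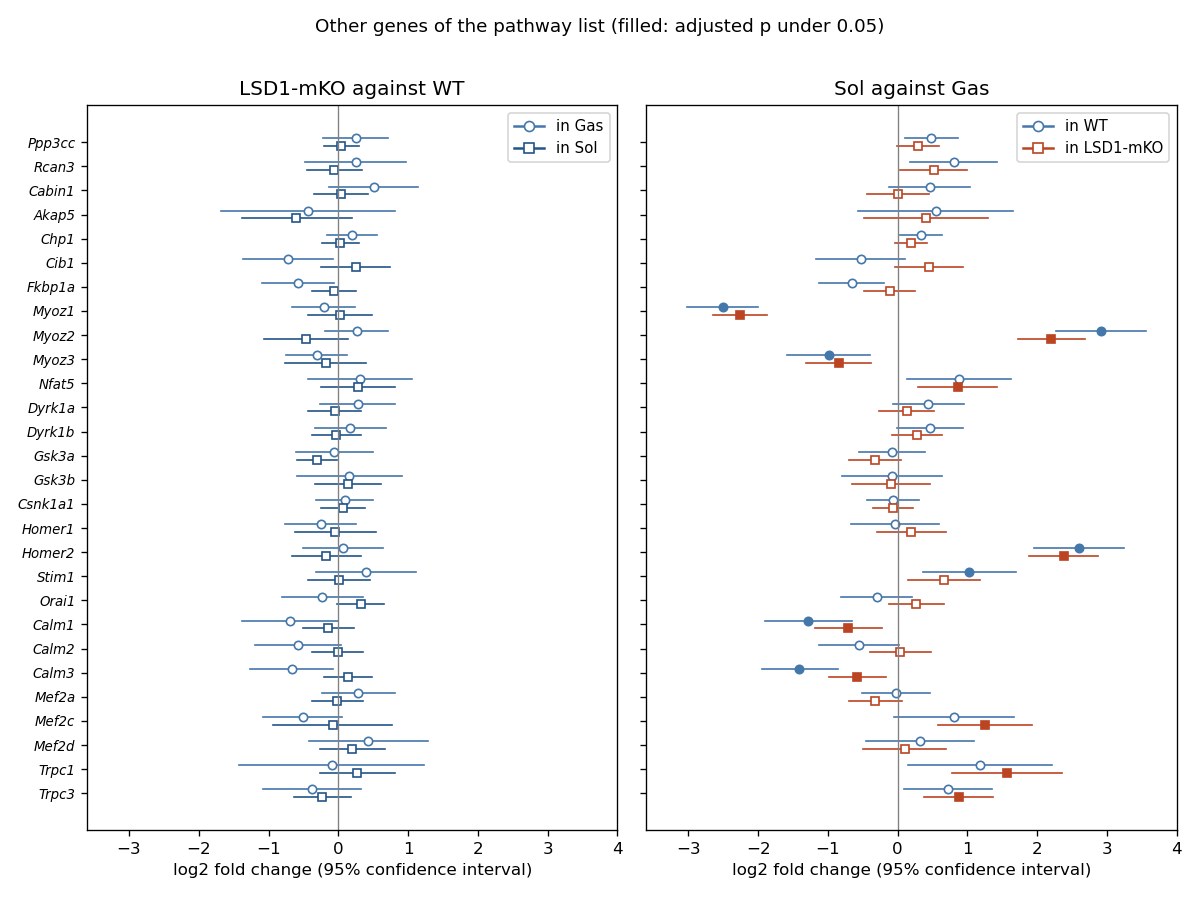
Log2 fold change with its 95% confidence interval for the 28 other pathway genes that were tested, for LSD1-mKO against WT (left) and Sol against Gas (right). Filled symbols had an adjusted p under 0.05. None is filled on the left, and on the right *Myoz2* and *Homer2* lie highest and *Myoz1* lowest in both genotypes.

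As a reference for the fiber types, 8 of 8 slow fiber genes were higher in Sol in both genotypes, with a median log2 fold change of 4.25 in WT and 3.80 in LSD1-mKO, and 6 of 8 fast fiber genes in WT and 7 of 8 in LSD1-mKO were lower. Between the genotypes none of these 16 genes was called in either muscle. In Gas all 8 slow fiber genes had an estimate above 0, with a median of 0.44, and 6 of 8 fast fiber genes had one below 0, with a median over the list of -0.56. An unadjusted p under 0.05 was found for 2 of the slow and 3 of the fast fiber genes, where 9.06% of all genes had one. The differences of *Rcan1*, *Rcan2* and *Nfatc2* between the muscles were thus smaller than the median slow fiber gene in both genotypes.

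The genes whose log2 CPM followed a member most closely across the 16 libraries are given as a description, since the libraries share muscle, genotype and depth. For *Rcan2* they were *Lrrc39*, which encodes a protein of the sarcomere (Pearson's r 0.992), and *Uqcrc2*, a subunit of respiratory complex III (0.981). *Uqcrc2* had 401 CPM in WT Gas and 815 CPM in WT Sol. For *Rcan1* they were the heat shock cochaperone gene *Dnajb4* (0.966), with 67.2 CPM in WT Gas and 248 CPM in WT Sol, and *Olfr558* (0.960). *Nfatc2* went with *Cul4a* and *Synpo* (0.948 each), *Nfatc3* with *Cep350* (0.972) and *Vps13b* (0.968), and *Nfatc1* with *Gatad2b* (0.966) and *Kmt2d* (0.952). *Ppp3ca* went with *Cdc42ep3* (0.968) and *Celf2* (0.957), *Ppp3cb* with *Atl2* and *Actr3b* (0.945 each), *Ppp3r1* with *0610040J01Rik* (0.942) and *Mrln* (0.940), and *Nfatc4* with *Maml1* (0.829) and *Cotl1* (0.827). Among the members, *Ppp3ca* and *Ppp3r1* (0.916), *Rcan1* and *Rcan2* (0.859) and *Ppp3cb* and *Ppp3r1* (0.856) went together most, and *Ppp3ca* and *Nfatc2* (-0.797) ran most in opposite directions.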

How the data were processed

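Poly(A) RNA of both muscles of the Dex-treated mice was sequenced with single-end reads. The authors used STAR with the mm10 genome. Per the file headers, featureCounts 1.5.2 then counted reads over exons. The deposited tables hold raw counts for 24421 genes per muscle. The authors' deposited comparison tables (log2 fold change, mean log2 CPM, p-value and adjusted p-value per gene) were not used. The library kit does not mark strand.

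Samples were grouped by genotype and muscle as labelled. No label ties the 2 muscles of a mouse or states separate cages or litters, so p-values measure the spread between these libraries. Genes were kept by filterByExpr (minimum count 10), scaled by TMM and tested two-sided with the quasi-likelihood F-test of edgeR 4.0.16 (limma 3.58.1, R 4.3.3) with Benjamini-Hochberg adjustment over all genes tested; genotypes were fitted within a muscle (8 libraries), and muscles and the interaction over 16 libraries. Genes under an adjusted p of 0.05 were called. CPM are scaled jointly over 16 libraries. A count of 0 allows up to 3 reads, or 0.103 to 0.34 CPM, for counting error only. Exon lengths and coordinates are from the GENCODE annotation of GRCm38 and promoters from RefSeq. The members and gene lists were chosen with earlier results of these data known. All 9 members are described; other pathway genes are named where called, at most the 4 largest per comparison, and the 2 most correlated genes per member.

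Same-numbered Gas and Sol libraries of LSD1-mKO deviated together (correlations 0.308 to 0.456 over genes). Those of WT did not (-0.65 to 0.205), nor did WT with LSD1-mKO in Gas (-0.219 to 0.43) or Sol (-0.00748 to 0.187). The main fits held no block and treated all libraries as independent, so their p-values did not use any pairing. Only the replicate block joined same-numbered libraries. Between the muscles and for the interaction it joined Gas with Sol in both genotypes, and between the genotypes it joined WT with LSD1-mKO by number alone. Alternatives were RLE scaling, no filter, DESeq2 1.42.0, the ribosomal protein level as covariate, the replicate block, the edgeR exact test, other sets of libraries and each library left out. Leaving out the 3 libraries of high ribosomal protein level together was chosen after seeing the data. The scripts were tested on simulated counts.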

Additional observations from a re-analysis of the deposited data

Results flagged for a closer look

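*Nfatc1* in LSD1-mKO Sol replicate 3 stood apart from the other libraries of its group. It had 46.7 CPM, and the other 4 had 34.4 to 37.4 CPM, so that its gap to the nearest took 0.757 of the whole range, above the 95% critical value of 0.71 for 5 libraries (Dixon's test). In all, 18 sets of 5 libraries were examined (9 members in LSD1-mKO Gas and Sol), among which chance flags about 1 in 20, or 0.900. The groups of 3 WT libraries were not examined in this way.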

How the results depend on the processing

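The count of members called was 0 between the genotypes and for the interaction in all settings. Between the muscles in WT, 5 became 3 with the ribosomal protein level as covariate, 2 with the WT libraries alone and 2 to 5 without 1 library, and in LSD1-mKO the count ran from 4 to 6. Of 324 member values under other settings, 293 kept direction and side of the threshold and 14 changed sign, and of 576 without 1 library, 522 and 41. The counts over all genes moved more. In Gas, 4 genes became 10 without the filter, 132 with DESeq2, 104 with the exact test, 62 with all 16 libraries and 1 to 7 without 1 library. In Sol, 129 became 336, 605 and 560 under the first 3 of these, 295 with the covariate, 412 with the replicate block, 23 without the 3 libraries of high ribosomal protein level and 11 to 228 without 1 library. The interaction gave 21 genes with DESeq2, 1 with the block and 0 to 1 without 1 library, and Sol against Gas in WT 1011 genes with the WT libraries alone and 1132 to 2839 without 1 library. Beyond the calls named above, the replicate block changed the call of no member.

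The log2 fold changes that changed sign follow, and the cause was not tested. Between the genotypes in Gas, *Nfatc1* was -0.11 with the covariate. In Sol, *Nfatc1* was 0.011 without the filter, 0.037 with the covariate, 0.034 with the replicate block and 0.0029 with all 16 libraries, and without the 3 libraries *Rcan1* was -0.079 and *Nfatc3* -0.24. For the interaction, *Rcan1* was -0.02 without the filter and -0.22 without the 3 libraries, and *Nfatc1* was 0.17 and *Nfatc3* 0.063 with the covariate. Between the muscles, *Nfatc3* was -0.39 in WT and -0.32 in LSD1-mKO with the covariate, and -0.07 in LSD1-mKO without the 3 libraries. Without 1 library, the genotype difference in Gas ran from -0.024 to 0.19 for *Rcan1*, -0.24 to 0.072 for *Rcan2* and -0.072 to 0.35 for *Nfatc1*, and in Sol from -0.10 to 0.74 for *Rcan1*, -0.19 to 0.15 for *Nfatc1*, -0.24 to 0.22 for *Nfatc3* and -0.033 to 0.12 for *Nfatc4*. The interaction ran from -0.019 to 0.69 for *Ppp3ca*, -0.0049 to 0.13 for *Ppp3cb*, -0.24 to 0.61 for *Rcan1*, -0.33 to 0.085 for *Nfatc1* and -0.31 to 0.50 for *Nfatc2*. Sol against Gas ran from -0.39 to 0.055 for *Nfatc1* in WT, and in LSD1-mKO from -0.061 to 0.20 for *Nfatc3* and -0.18 to 0.013 for *Nfatc4*. *Nfatc2* and *Nfatc4* had as few as 34 and 83 reads in a library, which limits the precision of their values.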
